A study of Mus musculus with 15 samples.

Results

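Macrophages polarized with IL-4 and IL-13 in the presence of nutlin-3a were compared with untreated, resting macrophages. The arrays were chosen by their sample titles, 3 of nutlin-treated M2 cells and 3 of M0 cells, or 6 of the 15 arrays in the series. The comparison asked which effects of IL-4 and IL-13 were still seen under p53 activation and which genes left both the resting and the M2 level. The 3 arrays of M2 cells without nutlin-3a served to define the cytokine effects, and the 3 arrays of M2 cells given the MYC inhibitor 10058F4 served as M2 cells exposed to another agent.

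IL-4 and IL-13 signal through receptors that share the IL-4 receptor alpha chain, activate Janus kinases and the transcription factor STAT6, and drive the alternative, or M2, state of macrophages, marked by arginase, chitinase-like and resistin-like proteins. The transcription factor p53 is held at a low level by its own target MDM2, a ubiquitin ligase. Nutlin-3a occupies the p53 pocket of MDM2, so that p53 accumulates and induces genes of cell cycle arrest, DNA repair, metabolism and cell death.

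All cells were mouse bone marrow macrophages cultured for 7 days with M-CSF, the growth factor of the macrophage lineage. M0 cells had no further treatment and no agent. M2 cells had IL-4 and IL-13 and no agent, nutlin-treated cells had IL-4, IL-13 and nutlin-3a, and the last group had IL-4, IL-13 and 10058F4. Nutlin-treated cells therefore differed from M0 cells in the cytokines and the agent together, and no M0 cells with nutlin-3a were analysed here. The sources used here do not give strain, sex, age, dose, time of exposure or vehicle. Replicates are labelled biological, but no label ties them to different animals or dishes. The p-values therefore reflect only the spread among the samples of this series, and that spread may be technical.

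Each sample was read on a single-channel array. Values are log2 expression per probe set, with 1 probe set standing for each gene, so that differences of 1 mean a 2-fold ratio. Tests covered 13703 of 18193 genes, those that exceeded the 40th percentile of the array in 3 or more samples. Arrays of a group correlated with r between 0.9956 and 0.9974 in the 4 groups used here, computed over probe sets rather than over replicates. The M1 arrays, a further group of the series, correlated less closely, with r between 0.9894 and 0.9944. They entered no comparison, but they were part of the limma fit. The errors and adjusted p-values below therefore also reflect the spread among the M1 arrays. RNA integrity was read from 3′ minus 5′ probe sets, whose difference for beta-actin was 0.453 ± 0.0346 (SD, n = 3) with nutlin-3a and 0.351 ± 0.0543 in M0 (exact two-sided permutation p = 0.1, the smallest that 3 against 3 arrays allow), and its part in the results was not tested. For Gapdh the 3′ minus 5′ difference was -0.281 ± 0.0136 with nutlin-3a and -0.273 ± 0.015 in M0 (exact two-sided permutation p = 0.6). Errors of differences are standard errors (SE) from the limma fit, and each adjusted p is limma's after Benjamini-Hochberg adjustment over the 13703 genes. A difference is called at an adjusted p under 0.05. A group mean below the 40th percentile is not shown to be above background, so a difference from it is not an exact size.

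Promoters, here the 250 bases before and 50 bases after each RefSeq transcription start on GRCm38.p6, are shown for members of both gene classes on which the results turn. The STAT6-type motif TTCNNNNGAA, which reads the same on both strands, was searched in the 10 genes with the largest rises against M0, of which 7 were in the promoter table and 3 held it (Tmem26, Pdcd1lg2 and Psrc1). This motif was held by 8.01% of all 27025 genes with a promoter and by 6.95% of all 32851 promoters. The p53 decamer consensus, which also reads the same on both strands, was searched in the p53 feedback genes, and 5 of the 9 in the table held it (Mdm2, Ccng1, Ppm1d, Cdkn1a and Rchy1), against 9.55% of all genes and 8.36% of all promoters. A gene with several promoters, such as Cdkn1a, Rchy1 or Mdm4 with 2 each, counted once if any held the motif. Of the 10 genes furthest above both levels, 7 were in the table and 0 held the p53 decamer. A match is a description of letters and not a mapped binding site. Only promoters with a match were printed, so they do not show how common the motifs are. Rasgrp1, which also rose alike with and without nutlin-3a, held 0 STAT6-type matches and is not printed. Tmem26 (chr10:68723496-68723795, + strand) and Pdcd1lg2 (chr19:29410669-29410968, + strand) held a match and rose alike with and without nutlin-3a. Mdm2 (chr10:117710709-117711008, - strand) held a match and rose with nutlin-3a. Their promoters are given with each motif match in capitals, 5′ to 3′:
Tmem26: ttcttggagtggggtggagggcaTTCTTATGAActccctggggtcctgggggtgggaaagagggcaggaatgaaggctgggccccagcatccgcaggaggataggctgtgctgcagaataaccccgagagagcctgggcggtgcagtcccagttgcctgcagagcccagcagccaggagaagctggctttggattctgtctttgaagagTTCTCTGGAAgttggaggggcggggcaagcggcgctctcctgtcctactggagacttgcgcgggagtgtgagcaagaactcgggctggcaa
Pdcd1lg2: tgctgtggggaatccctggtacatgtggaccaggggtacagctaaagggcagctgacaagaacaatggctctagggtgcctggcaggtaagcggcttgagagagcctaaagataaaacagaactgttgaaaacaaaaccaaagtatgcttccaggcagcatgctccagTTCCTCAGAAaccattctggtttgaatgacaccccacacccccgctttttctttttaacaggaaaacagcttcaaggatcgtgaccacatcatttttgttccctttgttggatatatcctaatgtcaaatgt
Mdm2: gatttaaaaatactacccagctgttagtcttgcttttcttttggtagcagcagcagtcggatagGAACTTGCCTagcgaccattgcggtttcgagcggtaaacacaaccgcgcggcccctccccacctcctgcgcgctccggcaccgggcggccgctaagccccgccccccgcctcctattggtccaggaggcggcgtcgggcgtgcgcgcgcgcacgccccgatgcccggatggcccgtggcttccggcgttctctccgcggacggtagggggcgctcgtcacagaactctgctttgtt

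The upstream Cdkn1a promoter held a pair of p53 decamers with a gap of 12 bases, an arrangement with a gap of 0 to 13 bases that 24 of the 32851 promoters (0.0731%) held. The downstream Cdkn1a promoter (chr17:29093519-29093818, + strand) held 0 decamers. Only exact matches to the consensus were searched, so near matches in the printed stretch are not marked, and the capitals do not show which bases p53 binds. This search for pairs was added after the decamer matches had been seen. The 52 bases around the pair (chr17:29090896-29090947, + strand), with both decamers in capitals, read:
Cdkn1a: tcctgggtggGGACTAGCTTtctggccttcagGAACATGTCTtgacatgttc

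In nutlin-treated M2 cells 1817 genes were higher and 2139 lower than in M0 cells, 28.9% of the genes tested, and differences of 2-fold or more numbered 282 (2.06%) upward and 304 (2.22%) downward. Arrays of nutlin-treated and M0 cells did not overlap in 44.7% of all genes. In M2 cells without the agent 1735 genes were higher and 2518 lower than in M0 cells (31%), of which 200 and 219 by at least 2-fold. Nutlin-treated cells differed from M2 cells in 2112 genes (15.4%), 1310 higher (9.56%) and 802 lower (5.85%). The count higher was 774 without M2 replicate 1 and 756 without nutlin-treated replicate 2, and the count lower was 469 and 504 without M2 replicates 1 and 3 and 462 and 495 without nutlin-treated replicates 1 and 2. The contrasts share arrays, and the median difference over all genes was 0.01 for nutlin-treated against M0 cells and 0.00 for M2 against M0 cells.

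Each gene with a called IL-4/IL-13 effect was placed in a class. An effect was kept in full if nutlin-treated cells were called the same way against M0 and not called against M2, and reduced or enlarged if they were also called against M2, back toward M0 or beyond M2. It was lost if they were called against M2 back toward M0 and not called against M0, and reversed if they were called against M0 the other way. Of the 200 genes that IL-4 and IL-13 raised at least 2-fold, 189 (94.5%) were still called higher in nutlin-treated cells: 130 were kept in full, 38 reduced and 21 enlarged, while 10 were lost. Of the 219 genes lowered at least 2-fold, 204 (93.2%) were still called lower, with 135 kept in full, 39 reduced and 30 enlarged, and 12 were lost. Their median difference from M0 was 1.42 in M2 and 1.42 in nutlin-treated cells for the raised genes, and -1.27 and -1.16 for the lowered. The median difference of nutlin-treated from M2 cells was -0.09 for the raised and 0.11 for the lowered genes. These genes were chosen by their difference in M2 cells, and both medians against M0 share the M0 arrays.

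**Figure D1:**
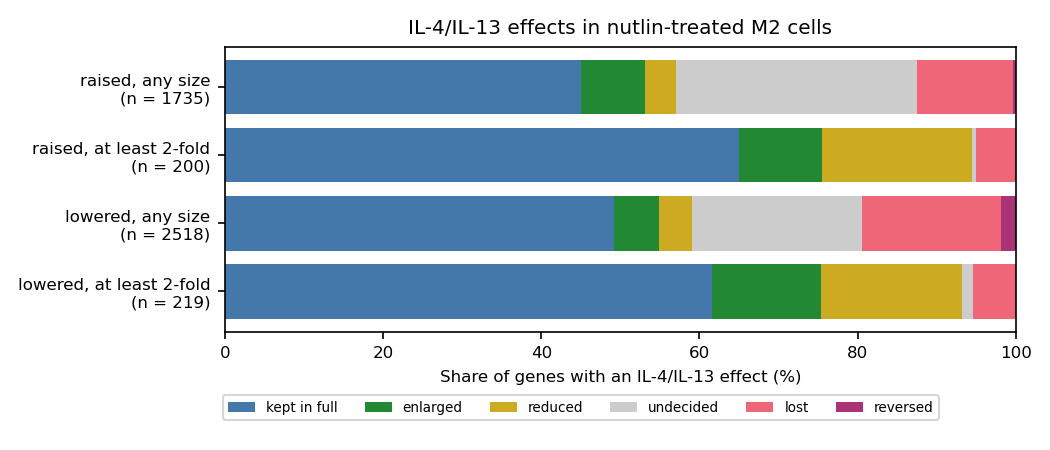
Share of genes with an IL-4/IL-13 effect (x axis, percent) in each class, for genes raised or lowered in M2 against M0 cells, of any size or of at least 2-fold. Kept in full is the widest band in each bar, at 65% of the genes raised at least 2-fold and 45.1% of all raised genes.

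Over effects of any size, 990 of 1735 rises (57.1%) and 1488 of 2518 falls (59.1%) were still called the same way. Among the rises 782 were kept in full, 69 reduced, 139 enlarged, 209 lost, 7 reversed and 529 undecided, meaning called neither against M0 nor back toward it. Among the falls 1240 were kept in full, 107 reduced, 141 enlarged, 443 lost, 47 reversed and 540 undecided. A gene kept in full is one whose difference from M2 cells missed the threshold, which does not show that the levels are alike. With fewer arrays several classes shrank by more than 1.5 times. The 652 effects lost in all were 322 without M2 replicate 1, 370 without nutlin-treated replicate 2 and 418 without M2 replicate 3. The 176 reduced effects were 114 without M2 replicate 1, 116 without nutlin-treated replicate 1 and 99 without nutlin-treated replicate 2. The 280 enlarged effects were 151, 169 and 165 without M2 replicates 1, 2 and 3, and 171 and 184 without nutlin-treated replicates 2 and 3.

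**Figure D2:**
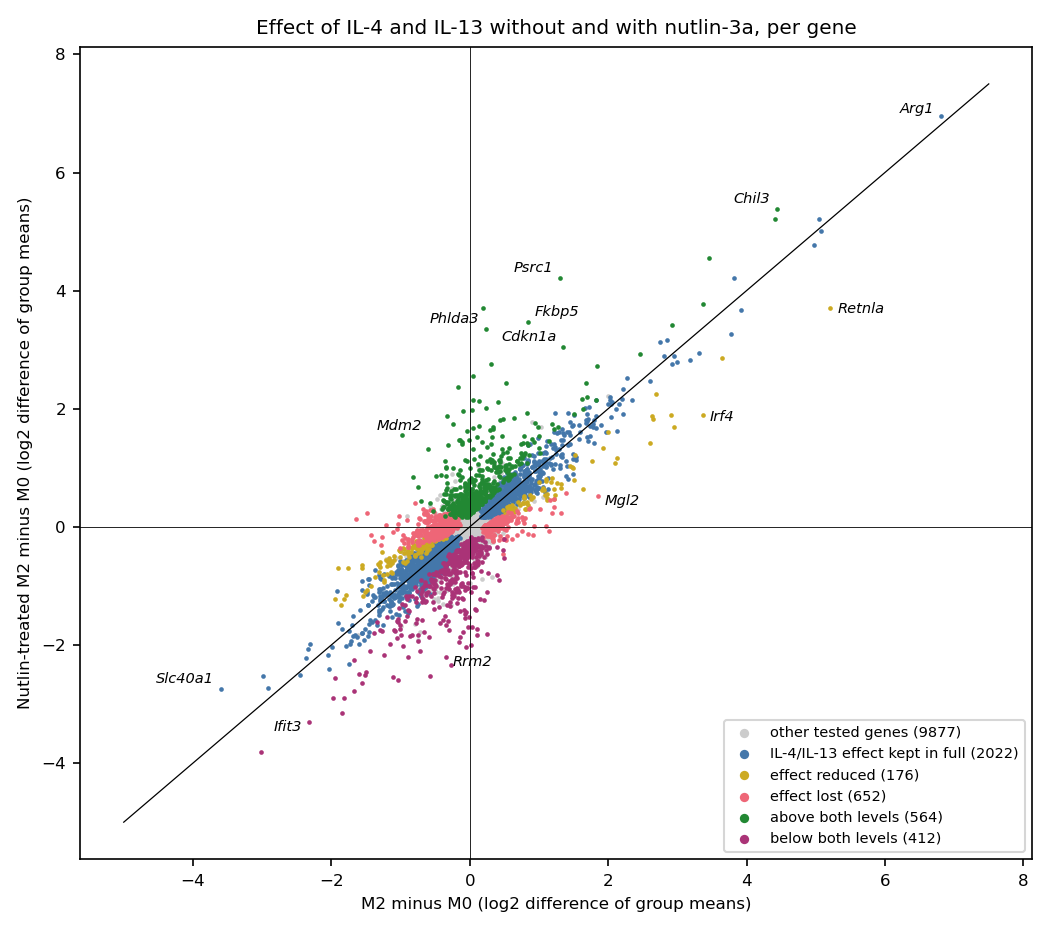
Log2 difference of nutlin-treated M2 cells from M0 cells (y axis) against that of M2 cells from M0 cells (x axis) for each of the 13703 tested genes, coloured by class; the line marks equal differences, and both axes share the M0 arrays. Arg1 lies on the line at 6.81 and 6.96, while Psrc1, Phlda3 and Mdm2 lie above it and Retnla, Irf4 and Mgl2 below it.

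The best known products of alternative activation were among the largest rises. Arg1, the enzyme that turns arginine into ornithine and urea, read 3.86, 3.41 and 3.40 in M0 arrays, 9.93, 10.66 and 10.53 in M2 arrays and 10.18, 10.75 and 10.62 in nutlin-treated arrays. Nutlin-treated cells were higher than M0 cells by 6.96 (SE 0.66, adjusted p = 1.84e-06) and differed from M2 cells by 0.15 (SE 0.66, adjusted p = 0.917). The 3 nutlin-treated arrays lay within or just above the range of the M2 arrays and far above the M0 arrays, whose Arg1 mean was below the 40th percentile. Pdcd1lg2, the PD-1 ligand PD-L2, read 4.42, 4.44 and 4.39 in M0, 9.38, 9.32 and 9.48 in M2 and 9.36, 9.03 and 9.19 with nutlin-3a (difference from M0 4.78, SE 0.09, adjusted p = 1.54e-13). Its difference from M2 cells was -0.19 (adjusted p = 0.151). Tmem26, a transmembrane protein, read 5.44, 5.94 and 5.87 in M0, 10.79, 10.77 and 10.89 in M2 and 10.66, 10.84 and 10.76 with nutlin-3a. It was 32.1-fold higher than in M0 (log2 difference 5.01, SE 0.17, adjusted p = 6.66e-11), and its M2 and nutlin-treated arrays overlapped. Rasgrp1, a Ras activator whose M0 mean was below the 40th percentile, rose by 5.22 over M0 (SE 0.17), and the arginine transporter Slc7a2 by 4.21 (SE 0.16), with differences from M2 cells of 0.18 (adjusted p = 0.543) and 0.38 (adjusted p = 0.119). Other Rasgrp1 probe sets gave smaller rises over M0, of 1.47 and 0.40.

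For 5 of the 10 largest rises the nutlin-treated level lay above the M2 level as well, Psrc1 among them, which is described with the p53 targets. Chil3, a chitinase-like secreted protein, read 4.58, 5.35 and 4.99 in M0, 9.17, 9.28 and 9.79 in M2 and 10.25, 10.27 and 10.56 with nutlin-3a. All nutlin-treated arrays were higher than all M2 arrays (difference 0.95, SE 0.19, adjusted p = 0.00357), and the difference from M0 was 5.39 (SE 0.19). Rnase2a, an eosinophil-type ribonuclease, read 6.76, 6.79 and 6.89 in M2 and 7.99, 8.11 and 7.61 with nutlin-3a (difference 1.09, SE 0.17, adjusted p = 0.000616), against an M0 mean below the 40th percentile. Socs2, an inhibitor of cytokine signalling, was at 9.32, 9.14 and 9.24 in M2 and 10.10, 10.08 and 9.92 with nutlin-3a (difference 0.80, adjusted p = 0.00079). Prps1, which makes the ribose donor of nucleotide synthesis, exceeded the M2 level by 0.40 (SE 0.09, adjusted p = 0.0105) and the M0 level by 3.77 (SE 0.09). In M2 cells given 10058F4, Chil3 was at 10.70, 10.76 and 10.98 and Rnase2a at 8.12, 8.09 and 7.76, and the nutlin-treated cells were not called apart from them (differences -0.45, adjusted p = 0.19, and -0.09, adjusted p = 0.849). For Socs2 the 10058F4 arrays were higher than the nutlin-treated arrays by 0.92 (nutlin minus 10058F4 -0.92, adjusted p = 0.000371).

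**Figure D3:**
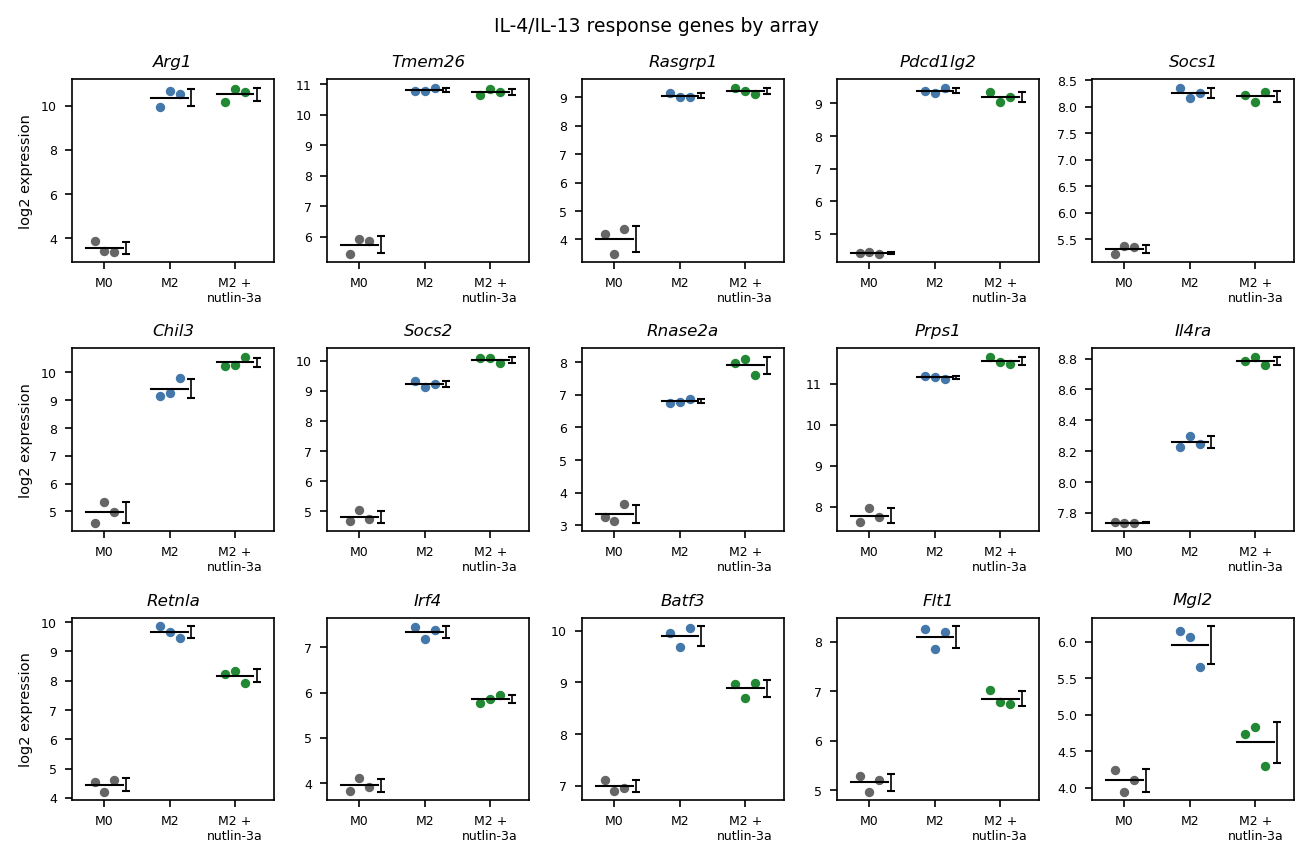
Log2 expression (y axis, own range in each panel) of 15 IL-4/IL-13 response genes on each M0, M2 and nutlin-treated M2 array; lines are group means and bars ± SD over 3 arrays. The top row shows genes kept in full, the middle row genes enlarged, and the bottom row genes given back in part (Retnla, Irf4, Batf3, Flt1) or lost (Mgl2, nutlin-treated mean 4.62 against 5.95 in M2).

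Of 19 tested genes of IL-4 signalling 10 were higher and 4 lower in nutlin-treated than in M0 cells, beside 9 and 2 in M2 cells, and 5 were higher and 2 lower than in M2 cells. For this list and each list below, the shares higher and lower than in M0 compare with 13.3% and 15.6% of all genes. The receptor chain Il4ra read 7.74 in each of the M0 arrays, 8.23, 8.30 and 8.25 in M2 and 8.78, 8.81 and 8.76 with nutlin-3a, so the 3 groups did not overlap (nutlin-treated minus M0 1.05, SE 0.06, adjusted p = 6.53e-09; minus M2 0.53, adjusted p = 2.98e-05). The partner chain Il13ra1 fell by 1.73 against M0 with nutlin-3a (SE 0.20), and its difference was -1.51 without it. Among the kinases Jak2 rose by 1.7 over M0 (SE 0.07), while Jak1 and Tyk2 were not called (differences of 0.01 and -0.03). The feedback inhibitors Socs1 and Cish rose over M0 by 2.89 (SE 0.08) and 3.16 (SE 0.10), with differences from M2 cells of -0.06 (adjusted p = 0.668) and 0.31 (adjusted p = 0.0608). Stat6 itself was lower by 0.29 (nutlin-treated minus M0 -0.29, adjusted p = 0.00442). The phosphatase Ptpn6, which dampens cytokine receptor signals, read 10.30, 10.25 and 10.15 in M0, 10.09, 10.09 and 9.89 in M2 and 9.22, 9.17 and 9.13 with nutlin-3a, below both other groups in every array (nutlin-treated minus M2 -0.85, SE 0.09, adjusted p = 3.18e-05).

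Of 28 tested M2 markers, 22 were higher and 1 lower than in M0 with nutlin-3a, with a median difference of 1.76, beside 1.94 in M2 without it. By class 13 were kept in full, 6 reduced, 3 enlarged and 2 lost, among those with an IL-4/IL-13 effect. The mean level of the list was 5.80 to 5.90 in the M0 arrays, 8.20 to 8.26 in the M2 arrays and 7.96 to 8.01 in the nutlin-treated arrays, so the nutlin-treated arrays lay between the others without overlap. The mannose receptor Mrc1, kept in full, was at 10.64, 10.98 and 10.86 in M0, 12.81, 12.96 and 12.80 in M2 and 13.07, 13.05 and 12.97 with nutlin-3a (nutlin-treated minus M0 2.20, SE 0.27, adjusted p = 2e-05). The transcription factor Klf4 rose by 1.82 (SE 0.14) with nutlin-3a and by 1.80 without it.

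Several M2 genes were held back. Retnla, the resistin-like protein Fizz1, read 4.56, 4.20 and 4.60 in M0, 9.87, 9.67 and 9.44 in M2 and 8.24, 8.35 and 7.92 with nutlin-3a. It stayed 13.1-fold above M0 (log2 difference 3.71, SE 0.18, adjusted p = 2.21e-09) and was 2.82-fold below M2 (difference -1.49, SE 0.18, adjusted p = 8.17e-05). Irf4, a transcription factor of M2 polarization with an M0 mean below the 40th percentile, was at 7.44, 7.18 and 7.37 in M2 and 5.76, 5.85 and 5.94 with nutlin-3a (difference -1.48, SE 0.09, adjusted p = 1.52e-07). Its difference from M0 was 1.90 (SE 0.09). For both genes the 3 groups were ranked M0, nutlin-treated, M2 with no overlap.

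Mgl2, a galactose-binding lectin receptor, read 4.25, 3.94 and 4.11 in M0, 6.14, 6.06 and 5.65 in M2 and 4.73, 4.83 and 4.30 with nutlin-3a. Nutlin-treated cells lay 1.33 below M2 (difference -1.33, SE 0.20, adjusted p = 0.000478) and were not called against M0 (0.52, SE 0.20, adjusted p = 0.0618), although the arrays did not overlap. With the replicate number as a block the difference from M0 was called (adjusted p = 0.0283), as it was with only the 6 arrays of both groups (adjusted p = 0.0294). The M0 mean of Mgl2 was below the 40th percentile.

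Other IL-4/IL-13 rises were given back in part. The VEGF receptor Flt1 differed from M2 by -1.25 (SE 0.13, adjusted p = 2.2e-05) and from M0 by 1.69, and the phosphatase-like Pald1 by -1.19 and 1.42. The coactivator Ppargc1b, which drives mitochondrial genes, read 7.45, 7.53 and 7.47 in M0, 9.17, 9.16 and 9.03 in M2 and 8.24, 8.16 and 7.96 with nutlin-3a (nutlin-treated minus M2 -1.0, SE 0.09, adjusted p = 5.39e-06). The AP-1 type factor Batf3 differed from M2 by -1.01 (SE 0.11) and from M0 by 1.89, and the zinc finger factor Egr2 by -0.44 and 2.24. The lectin-like receptor Olr1 differed from M2 by -1.02 (adjusted p = 0.00949), with M0 and nutlin-treated means below the 40th percentile.

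Some rises were lost. Hivep3, a zinc finger protein, read 7.44, 7.47 and 7.26 in M0, 8.42, 8.65 and 8.54 in M2 and 7.35, 7.31 and 7.29 with nutlin-3a. Its nutlin-treated arrays lay within the M0 range (difference -0.07, adjusted p = 0.564) and 1.22 below M2 (difference -1.22, SE 0.08, adjusted p = 4.19e-07). Other tested Hivep3 probe sets gave -0.50, -0.26, 0.10 and 0.19 against M2, of which only -0.50 was called, so the size rests on a single probe set. The ETS factor Etv5 differed from M2 by -1.09 (adjusted p = 0.00491) and from M0 by 0.01 (SE 0.22). Prr15 differed from M2 by -1.09 (adjusted p = 0.00825), with M0 and nutlin-treated means below the 40th percentile. Myc, the growth-promoting transcription factor, was at 6.27, 6.90 and 6.72 in M0, 7.5, 7.31 and 7.61 in M2 and 6.34, 6.61 and 6.57 with nutlin-3a. Nutlin-treated cells overlapped M0 cells (difference -0.12, SE 0.15, adjusted p = 0.606) and lay 0.96 below M2 cells (difference -0.96, SE 0.15, adjusted p = 0.000787). In M2 cells given 10058F4, Myc was at 7.41, 7.45 and 7.57.

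In the list of MYC targets and ribosome biogenesis genes most members were, in contrast to Myc, higher than in M0. Of 33 tested, 21 were higher and 0 lower, with a median of 0.27, beside 0.28 in M2 cells. The transferrin receptor Tfrc differed from M0 by 0.99 (SE 0.20, adjusted p = 0.00169) and the spermidine synthase Srm by 0.63 (SE 0.13, adjusted p = 0.00164). Of the ribosome biogenesis genes, Utp20 differed from M0 by 0.91 and Rrp12 by 0.55. The count fell to 12 without M0 replicate 1, 11 without M0 replicate 3, 11 without nutlin-treated replicate 2 and 13 without nutlin-treated replicate 3, and to 13 with the mean of all probe sets or with only probe sets specific by suffix.

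Among the largest falls, 9 of 10 followed a fall in M2 cells or extended one. Slc40a1, the iron exporter ferroportin, read 12.12, 11.91 and 12.16 in M0, 8.48, 8.31 and 8.63 in M2 and 9.35, 9.12 and 9.48 with nutlin-3a. It fell by 2.75 against M0 (SE 0.30, adjusted p = 8.06e-06), and the nutlin-treated arrays, although all above the M2 arrays, were not called apart from them (0.84, SE 0.30, adjusted p = 0.0754; adjusted p = 0.00115 with the 9 arrays of the 3 groups). The phosphatase Ptpn22 fell by 2.73 (SE 0.14, adjusted p = 4.05e-09) and differed from M2 by 0.18 (adjusted p = 0.425). The cholesterol exporter Abca1 read 12.03, 12.20 and 12.19 in M0, 10.44, 10.42 and 10.55 in M2 and 9.47, 9.41 and 9.18 with nutlin-3a, and so fell below both (nutlin-treated minus M2 -1.12, SE 0.16, adjusted p = 0.000418). Gpr34, a receptor for lysophosphatidylserine, fell by 2.89 against M0 (SE 0.17) to a mean below the 40th percentile.

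Interferon-stimulated genes, which build the antiviral state, supplied 4 of the 10 largest falls, and the Ifit1-related gene Ifit1bl1, not in that list, was the largest of all. Ifit3 read 10.60, 9.83 and 9.94 in M0, 7.78, 7.55 and 8.08 in M2 and 7.00, 6.64 and 6.79 with nutlin-3a. It fell by 3.31 against M0 (SE 0.20, adjusted p = 2.57e-08) and lay below M2 in every array (difference -0.99, SE 0.20, adjusted p = 0.00468). Ifit1 fell by 3.16, Ifit2 by 2.9 and the antiviral enzyme Rsad2 by 2.64 against M0, and each was called below M2 (differences -1.32, -1.08 and -1.08). Ifit1bl1 fell by 3.81 to a nutlin-treated mean below the 40th percentile, and its difference from M2 (-0.80, adjusted p = 0.0109) was not called without nutlin-treated replicate 2 (adjusted p = 0.0572). Of 23 tested interferon-stimulated genes 0 were higher and 19 lower than in M0, with a median of -1.20, beside -0.94 in M2 cells, and 8 of the 19 were also called below M2. The mean level of the list was 8.54 to 9.0 in M0, 7.57 to 7.87 in M2 and 7.25 to 7.47 in nutlin-treated arrays. The chemokine Cxcl10, an interferon target outside that list, fell by 2.54 against M0 (SE 0.21) and differed from M2 by -1.44 (adjusted p = 0.000499). The 10058F4 arrays were also low for these genes, with Ifit3 at 7.69, 7.02 and 7.43 and Cxcl10 at 4.72, 3.99 and 4.18.

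Among the falls given back, several are known targets of p53. Pmaip1, the pro-apoptotic protein Noxa, read 8.39, 8.28 and 8.30 in M0, 6.65, 6.70 and 6.67 in M2 and 8.43, 8.47 and 8.48 with nutlin-3a. Nutlin-treated cells were 1.79 above M2 (SE 0.09, adjusted p = 2.3e-08) and 0.14 from M0 (SE 0.09, adjusted p = 0.301). Gadd45a, a growth arrest and DNA damage protein, was at 10.15, 10.13 and 10.34 in M0, 8.46, 8.63 and 9.08 in M2 and 10.31, 10.37 and 10.66 with nutlin-3a (difference from M2 1.72, SE 0.15, adjusted p = 5.39e-06; from M0 0.24, adjusted p = 0.272). Both genes were therefore higher than in M2 in every nutlin-treated array without being called against M0.

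The engulfment receptor Mertk read 10.28, 10.19 and 10.16 in M0, 8.86, 8.71 and 8.78 in M2 and 10.10, 10.12 and 10.01 with nutlin-3a (difference from M2 1.29, SE 0.09, adjusted p = 7.56e-07; from M0 -0.13, adjusted p = 0.329). In cells given 10058F4, Mertk was higher still, at 10.94, 10.88 and 10.96. The anticoagulant receptor Thbd read 5.70, 5.88 and 6.03 in M2 and 7.0, 7.09 and 7.27 with nutlin-3a and differed from M0 by 0.04. The fatty acid binding protein Fabp4 differed from M2 and M0 by 1.14 and -0.24, Ermard by 1.21 and 0.19, and the zinc finger gene Zfp719 by 1.10 and -0.16, with no call against M0.

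Above both the M0 and the M2 level lay 564 genes (4.12%), and below both lay 412 (3.01%), of which 49 (0.358%) and 54 (0.394%) by at least 2-fold from each. Of the 564 genes above, 378 had no called IL-4/IL-13 effect, 139 extended a rise and 47 went against a fall. Of the 412 below, 264 had no called effect, 141 extended a fall and 7 went against a rise. Against M2 cells given 10058F4, from which nutlin-treated cells differed in 6.96% of all genes (4.24% higher, 2.72% lower), 149 of the genes above (26.4%) were called the same way and 50 the opposite way, while 74 of the genes below (18%) were called the same way and 50 the opposite way. Both of these contrasts share the nutlin-treated arrays. The count above was 354 without nutlin-treated replicate 2, and the count below was 266 and 272 without M2 replicates 1 and 3 and 239 and 270 without nutlin-treated replicates 1 and 3.

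Of the 10 tested genes of the p53 feedback circuit, 5 were higher and 0 lower than in M0 with nutlin-3a, with a median of 0.69, beside -0.11 in M2 cells without it, and the same 5 lay above both levels. Mdm2, the ligase that degrades p53, read 9.42, 9.39 and 9.49 in M0, 9.15, 9.10 and 9.31 in M2 and 11.14, 11.15 and 11.24 with nutlin-3a. It rose 3.35-fold over M0 (log2 difference 1.74, SE 0.09, adjusted p = 5.37e-09) and 3.97-fold over M2. Another probe set naming Mdm2 gave 2.08 against M0, and the remaining probe set gave 0.36 (adjusted p = 0.02) against M0 and 0.31 (adjusted p = 0.0677) against M2, so the call against M2 was lost on that probe set. Cdkn1a, the cell cycle inhibitor p21, was at 9.44, 9.40 and 9.34 in M0, 10.81, 10.67 and 10.76 in M2 and 12.48, 12.42 and 12.43 with nutlin-3a. It rose in steps from M0 to M2 (1.35) and from M2 to nutlin-treated cells (1.7, SE 0.06, adjusted p = 1.11e-09), 8.29-fold over M0 in all. In cells given 10058F4, Cdkn1a was at 9.94, 10.11 and 9.95, below the M2 arrays.

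The other members of the circuit above both levels were Trp53inp1, Ccng1 and Mdm4. Trp53inp1, a p53-induced nuclear protein, read 10.28, 9.98 and 10.04 in M0, 9.89, 9.70 and 9.74 in M2 and 12.11, 11.83 and 11.99 with nutlin-3a (difference from M0 1.88, SE 0.11, adjusted p = 2.41e-08). Cyclin G1, Ccng1, which recruits a phosphatase to MDM2, differed from M0 by 1.47 (SE 0.06) and from M2 by 1.60, and Mdm4, the p53 inhibitor related to MDM2, by 1.19 (SE 0.10) and 1.05. The phosphatase Ppm1d and the ligase Rchy1 had been lower in M2 cells and were not called against M0 with nutlin-3a (differences 0.18 and -0.05). The ligase Cop1 and the deubiquitinase Usp7 were not called against M0 or M2. The SUMO ligase Pias1 was lower than in M2 (-0.22, adjusted p = 0.0146), the only list member called that way, and was not called against M0 (-0.12, adjusted p = 0.111).

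Among 25 tested p53 targets of arrest, repair and metabolism, 14 were higher and 2 lower than in M0, with a median of 0.62, beside -0.14 in M2 cells, and 13 lay above both levels. The share lower was under the 15.6% of all genes, and the share higher was above the 13.3% of all genes. Psrc1, a microtubule regulator, read 5.39, 5.50 and 5.50 in M0, 6.69, 6.87 and 6.73 in M2 and 9.70, 9.66 and 9.67 with nutlin-3a, a rise of 18.6-fold over M0 and 7.53-fold over M2 (difference from M2 2.91, SE 0.14, adjusted p = 1.14e-08). Another Psrc1 probe set gave smaller log2 differences, 1.49 from M0 and 0.96 from M2. Zmat3, an RNA-binding protein, was at 7.92, 8.05 and 7.97 in M0, 7.79, 7.92 and 7.70 in M2 and 10.37, 10.38 and 10.27 with nutlin-3a (difference from M0 2.36, SE 0.08, adjusted p = 9.12e-11). The thiamine transporter Slc19a2 read 7.22, 7.16 and 7.13 in M0, 7.60, 7.49 and 7.36 in M2 and 9.93, 9.93 and 9.91 with nutlin-3a (difference from M0 2.75, SE 0.08). For these 3 genes the nutlin-treated arrays stood apart from all M0, M2 and 10058F4 arrays, the last with Psrc1 at 5.93, 6.32 and 5.89 and Zmat3 at 7.38, 7.61 and 7.43. The adenylate kinase Ak1 differed from M0 by 2.11 (SE 0.14), the translesion polymerase Polk by 1.65 (SE 0.07), and Gtse1, a mitotic regulator of p53, by 1.68 (SE 0.17). The 2 lower members were the stress sensor Sesn1 (-0.88, adjusted p = 7.17e-08) and the repair factor Xpc (-0.32, adjusted p = 0.0191), while Sesn2 was higher by 0.96 (adjusted p = 2.04e-06).

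The cell death list joined p53 targets with general regulators of cell death such as Bcl2, Mcl1 and Casp8. Of its 16 tested genes 5 were higher and 3 lower than in M0, with a median of 0.02, beside 13.3% higher and 15.6% lower of all genes, so the count lower was near the background. Phlda3, which restrains AKT, read 6.84, 6.56 and 6.85 in M0, 6.88, 6.98 and 7.07 in M2 and 10.07, 10.13 and 10.13 with nutlin-3a (difference from M0 3.36, SE 0.12, adjusted p = 6.66e-11). The nuclease Aen rose by 1.53 (SE 0.07), the death receptor Fas by 1.35 (SE 0.15) and the pro-apoptotic protein Bbc3, or Puma, by 1.11 (SE 0.10) over M0, each also above M2 in every array. Bcl2l11 rose over M0 by 0.48 and lay below M2 (-0.30, adjusted p = 0.0419). The lower members were the inflammatory caspase Casp1 (-0.62), Casp8 (-0.41) and the autophagy regulator Dram1 (-0.57). The apoptosome scaffold Apaf1, lowered in M2 cells, was not called against M0 (difference -0.05, adjusted p = 0.6; from M2 0.64, adjusted p = 1.71e-05).

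**Figure D4:**
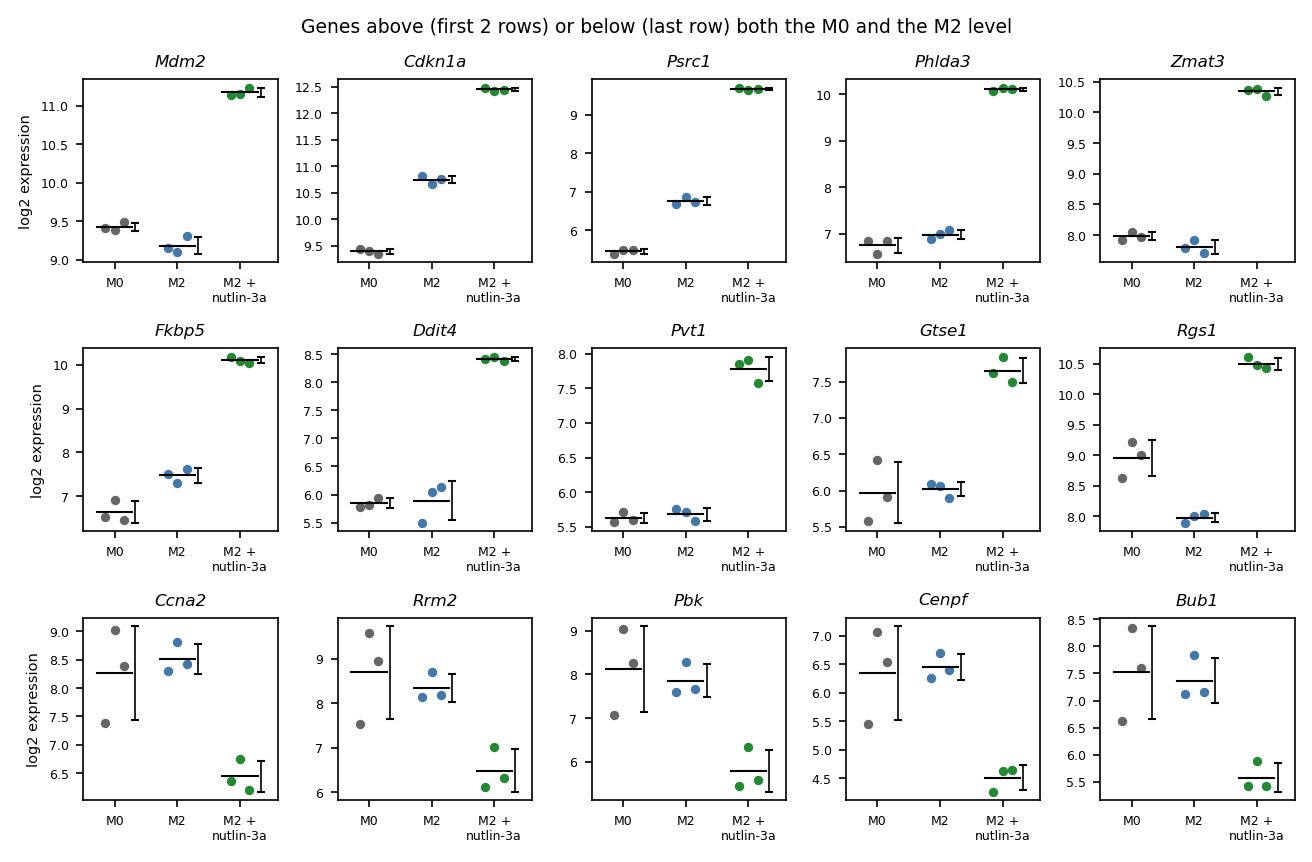
Log2 expression (y axis, own range in each panel) on each M0, M2 and nutlin-treated M2 array for 10 genes above both levels and 5 genes below both levels; lines are group means and bars ± SD over 3 arrays. Mdm2, Psrc1, Phlda3 and Zmat3 stand above every M0 and M2 array with nutlin-3a, and for Ccna2, Rrm2, Pbk, Cenpf and Bub1 the M0 arrays spread widely, replicate 1 being the lowest.

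Further genes high above both levels were not classed with the p53 lists. Pvt1, a long noncoding RNA next to Myc, read 5.57, 5.71 and 5.60 in M0, 5.76, 5.71 and 5.58 in M2 and 7.85, 7.91 and 7.58 with nutlin-3a, while Myc was not called against M0 (Pvt1 difference from M0 2.15, SE 0.13, adjusted p = 2.35e-08). Ddias, an apoptosis suppressor induced by DNA damage, differed from M0 by 1.97 (SE 0.23, adjusted p = 1.26e-05), and its 10058F4 arrays were at 5.05, 5.61 and 5.19. The actin regulator Eps8 and the phosphatidate phosphatase Lpin1 differed from M0 by 2.13 (SE 0.22) and 1.98 (SE 0.18). Those last were also high with 10058F4, at 6.80, 6.94 and 6.89 for Eps8 and 8.84, 9.03 and 9.08 for Lpin1, and the nutlin-treated cells were not called apart from them (adjusted p = 0.313 and 0.152).

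Genes of the ATF4 response, which restores amino acid supply under stress, were higher in 19 and lower in 0 of 25 tested, with a median of 0.48, beside 0.05 in M2 cells, and 14 lay above both levels. With only probe sets specific by suffix 12 were higher instead of 19. Ddit4, an mTORC1 inhibitor, read 5.78, 5.82 and 5.94 in M0, 5.49, 6.04 and 6.13 in M2 and 8.41, 8.45 and 8.37 with nutlin-3a (difference from M0 2.56, SE 0.15, adjusted p = 1.64e-08). The factor Atf5 rose by 1.85 (SE 0.12), the glutathione-degrading enzyme Chac1 by 1.53 (SE 0.14) and asparagine synthetase Asns by 1.32 (SE 0.21) over M0, and Atf4 itself by 0.78 (adjusted p = 7.37e-05). In the 10058F4 arrays Ddit4 was at 8.82, 8.43 and 8.67 and Asns at 7.51, 7.96 and 7.39, and nutlin-treated cells were not called apart from them (adjusted p = 0.451 and 0.644).

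In the list of glucocorticoid-type and clock genes 8 of 18 were higher and 3 lower than in M0, with a median of 0.60, beside -0.06 in M2 cells. Of all genes 13.3% were higher and 15.6% lower, so the count lower was near the background. Fkbp5, a chaperone of the glucocorticoid receptor, read 6.54, 6.92 and 6.46 in M0, 7.51, 7.30 and 7.62 in M2 and 10.18, 10.09 and 10.04 with nutlin-3a (difference from M0 3.46, SE 0.15, adjusted p = 6.79e-10). It was higher again with 10058F4, at 12.26, 12.13 and 12.19 (nutlin minus 10058F4 -2.09, adjusted p = 4.91e-07). Another Fkbp5 probe set gave 1.97 for nutlin-treated against M0 cells. Tsc22d3, or Gilz, rose by 1.62 over M0 (SE 0.20) and the clock repressor Cry1 by 1.44 (SE 0.12), both above M2, with Cry1 at 8.49, 8.31 and 8.52 in the 10058F4 arrays. The clock genes Per3, Nr1d2 and Dbp were lower than in M0 (-0.98, -1.08 and -1.16), as they were in M2 cells (-0.82, -0.97 and -1.78).

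Pbk, Aspm, Anln, Uhrf1, Rrm2, Cenpf, Ccna2, Bub1, Kif20a and Shcbp1 were the 10 genes furthest below both levels. Ccna2, the cyclin of S phase and mitotic entry, read 7.38, 9.03 and 8.39 in M0, 8.31, 8.81 and 8.42 in M2 and 6.37, 6.75 and 6.21 with nutlin-3a (difference from M0 -1.82, SE 0.31, adjusted p = 0.000377; from M2 -2.07, adjusted p = 0.000474). Rrm2, which makes deoxynucleotides, was at 7.53, 9.58 and 8.95 in M0, 8.14, 8.70 and 8.18 in M2 and 6.11, 7.02 and 6.31 with nutlin-3a (difference from M0 -2.21, SE 0.40, adjusted p = 0.000736). The mitotic kinase Pbk read 7.08, 9.04 and 8.26 in M0, 7.61, 8.29 and 7.67 in M2 and 5.45, 6.34 and 5.57 with nutlin-3a (difference from M0 -2.34, SE 0.43, adjusted p = 0.000864). In all 3 genes M0 replicate 1 was the lowest M0 array, and the nutlin-treated arrays lay below every M0 and M2 array. The spindle protein Aspm (-2.00), the cytokinesis factors Anln (-2.03), Kif20a (-1.72) and Shcbp1 (-1.86), the kinetochore proteins Cenpf (-1.84) and Bub1 (-1.94) and the methylation factor Uhrf1 (-2.52) fell against M0 as well, Uhrf1 to a mean below the 40th percentile. Other probe sets gave smaller falls against M0, with Anln at -0.65, Uhrf1 at -1.36, Aspm at -1.09 and Cenpf at -0.81 and -0.09. Cenpf at -0.09 was not called against M0 or M2, and Anln at -0.65 and Uhrf1 at -1.36 were not called against M2. In the 10058F4 arrays Ccna2 was at 8.17, 8.69 and 8.21 and Rrm2 at 8.31, 8.93 and 8.33, above the nutlin-treated arrays.

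Of 26 tested mitosis genes 0 were higher and 20 lower than in M0, with a median of -1.21, beside -0.05 in M2 cells, and 17 lay below both levels. The mean level of the list was 6.83, 8.15 and 7.61 in the M0 arrays, 7.33, 7.81 and 7.39 in M2 and 6.19, 6.62 and 6.28 with nutlin-3a. M0 replicate 1 thus lay below all M2 arrays and above all nutlin-treated arrays. Leaving out that array gave 24 lower members, and leaving out M0 replicate 2 gave 16. In M0, M2 and nutlin-treated cells alike, replicate 1 was the lowest array and replicate 2 the highest. With the replicate number as a block 23 members were lower than in M0. Mki67, the proliferation antigen Ki-67, was not called, at 0.37 against M0 (adjusted p = 0.303). In whole-culture RNA, fewer dividing cells and less RNA per dividing cell cannot be told apart.

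DNA replication genes were lower in 23 and higher in 0 of 26 tested, with a median of -0.71, beside -0.43 in M2 cells, and 7 lay below both levels. The loading factor Cdc6 fell by 2.50 against M0 (SE 0.29, adjusted p = 1.49e-05), to a mean below the 40th percentile, and thymidine kinase Tk1 by 1.63 (SE 0.35, adjusted p = 0.00237). The mean level of the list was 7.36, 8.26 and 7.88 in M0, 7.37, 7.57 and 7.41 in M2 and 6.92, 7.11 and 6.97 with nutlin-3a, and M0 replicate 1 lay below each M2 array. The count lower was 17 without M0 replicate 2, 25 without M0 replicate 1 and 24 with the replicate number as a block. Among 20 genes of the G1 cyclin and E2F list 9 were lower and 2 higher than in M0, beside 15.6% and 13.3% of all genes, so the count higher was near the background. The repressor E2f8 was at -1.93 against M0 (SE 0.27, adjusted p = 7.75e-05) and the pocket protein Rbl1 at -0.93 (SE 0.13, adjusted p = 9.21e-05). Esco2, the cohesin acetyltransferase among the 10 largest falls, read 3.81, 6.44 and 5.41 in M0, 4.32, 4.90 and 3.34 in M2 and 2.67, 2.82 and 2.39 with nutlin-3a. Its difference from M0 was -2.60 (SE 0.50, adjusted p = 0.00109), and its difference from M2 (-1.56, adjusted p = 0.0481) missed the threshold without M0 replicate 3 (adjusted p = 0.0609), M2 replicate 1 (0.135) or 2 (0.169), or nutlin-treated replicate 1 (0.104), 2 (0.0934) or 3 (0.128). Its M2 and nutlin-treated means were below the 40th percentile.

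A small group of effects changed direction, 54 in all and 25 to 46 when an array was left out, with 25, 30 and 28 without M0 replicates 1, 2 and 3 and 35 without M2 replicate 1 or nutlin-treated replicate 2. Rgs1, which limits chemokine receptor signalling, read 8.63, 9.22 and 9.0 in M0, 7.89, 8.0 and 8.03 in M2 and 10.61, 10.47 and 10.42 with nutlin-3a. It was lower in M2 than in M0 (-0.98) and higher in nutlin-treated cells (1.55, SE 0.17, adjusted p = 8.35e-06), and higher again with 10058F4, at 11.78, 11.55 and 11.61. Cd80, the costimulatory ligand B7-1, was at 5.87, 5.73 and 5.56 in M0, 4.86, 5.19 and 4.86 in M2, 6.23, 6.43 and 6.5 with nutlin-3a and 4.83, 4.94 and 4.68 with 10058F4. Its difference from M0 was 0.67 (SE 0.12, adjusted p = 0.000658) and from M2 1.42. Kank3 differed from M0 by -0.60 in M2 and by 1.32 with nutlin-3a, which left it above every other array shown here. The AP-1 repressor Jdp2 had differences of -0.82 and 0.84, but its other probe set gave 0.04 with nutlin-3a. In the opposite direction the endothelial and lymphoid factor Klf2 was higher in M2 (0.49) and lower with nutlin-3a (-0.53, adjusted p = 0.0107), a call that was lost without M0 replicate 2 (adjusted p = 0.0568) and without nutlin-treated replicate 1 (adjusted p = 0.0586).

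**Figure D5:**
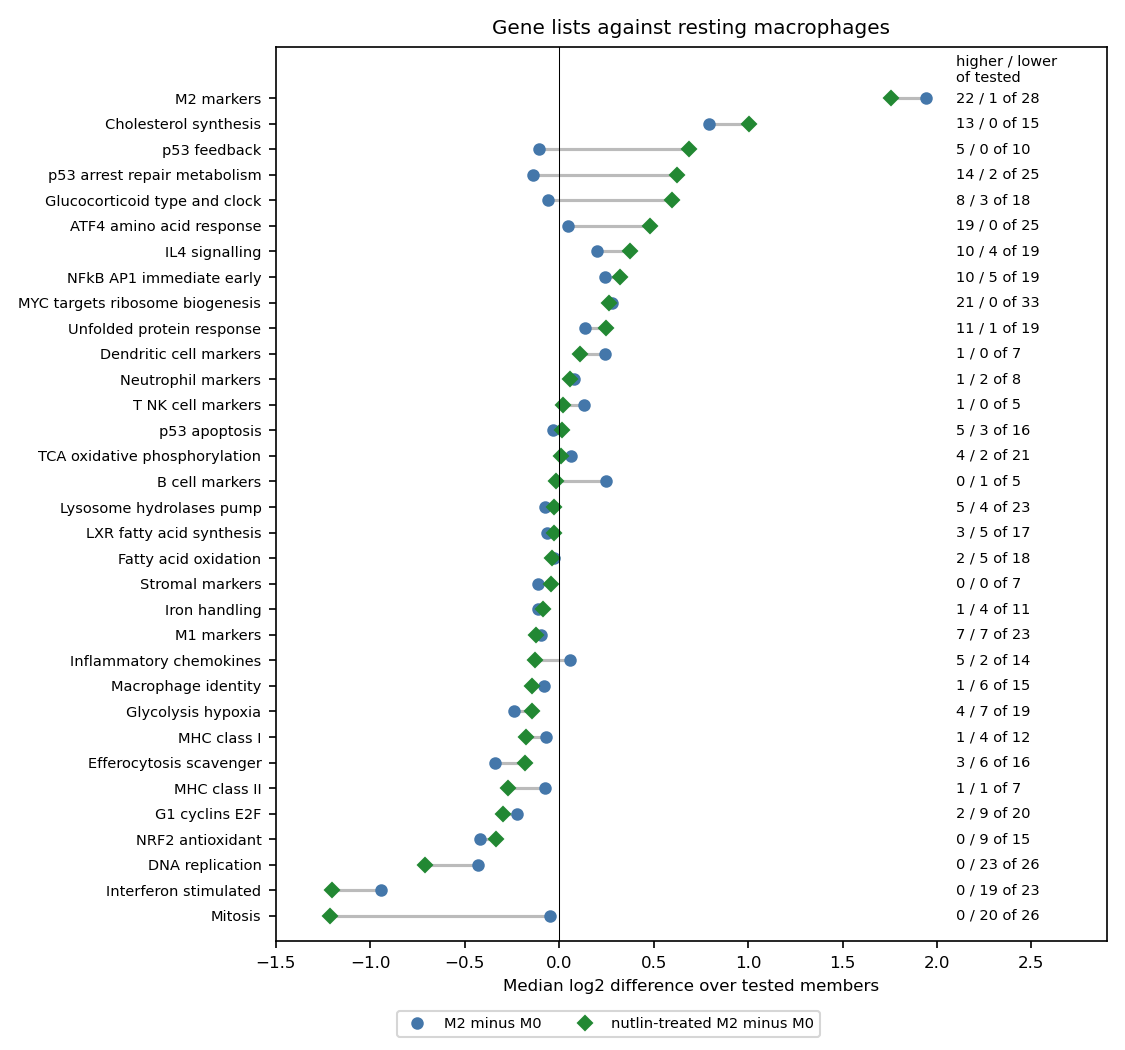
Median log2 difference from M0 over the tested members of each gene list with at least 5 of them (x axis) for M2 cells (circles) and nutlin-treated M2 cells (diamonds), with the members called higher and lower in nutlin-treated cells at the right; both share the M0 arrays. The symbols lie far apart for mitosis (-0.05 and -1.21) and p53 feedback (-0.11 and 0.69) and close together for cholesterol synthesis, M2 markers and MYC targets.

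Enzymes of cholesterol synthesis were higher than in M0 in 13 of 15 tested, with a median of 1.01, beside 0.79 in M2 cells, and 11 of the 13 were kept in full. The decarboxylase Mvd read 7.04, 6.83 and 6.54 in M0, 8.04, 8.17 and 8.07 in M2 and 8.27, 8.61 and 8.34 with nutlin-3a (difference from M0 1.61, SE 0.14, adjusted p = 1.15e-06). Idi1, Fdft1 and Cyp51 rose by 1.41, 1.33 and 1.32, and Insig1, which restrains the pathway, exceeded M2 by 0.53 (adjusted p = 0.00124). Other Fdft1 probe sets gave 1.24, 0.17 and 0.13 against M0, of which 0.17 and 0.13 were not called. Fatty acid synthase Fasn rose by 1.08 over M0, and the LXR targets Abca1 and Mylip fell by 2.78 and 1.86. NRF2 antioxidant genes were lower in 9 and higher in 0 of 15, with the heme oxygenase Hmox1 at -0.88 (SE 0.17, adjusted p = 0.00119). For oxidative phosphorylation, 4 were higher and 2 lower of 21, near the background share of 13.3% and 15.6%. In the unfolded protein response 11 of 19 were higher and 1 lower than in M0, beside 7 and 2 in M2 cells. Of these 19 genes 5 were called above M2. The disulfide isomerase Pdia4 differed from M0 by 2.14 (SE 0.10) and from M2 by 0.32. Its call against M2 was lost in several alternatives, such as the mean of all probe sets (0.02, adjusted p = 0.905).

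Inflammatory and antigen presentation lists were mixed. Of 23 M1 markers 7 were higher and 7 lower than in M0 (4 higher with only probe sets specific by suffix), with the costimulatory ligand Cd86 higher by 2.08 (SE 0.15, adjusted p = 1.68e-07). Of 14 inflammatory chemokines 5 were higher and 2 lower, among them the monocyte attractant Ccl7 at 1.92 and Ccl3 at -1.34. Of 19 immediate early and NF-kB genes 10 were higher and 5 lower, with Ier3 at 2.93 and the NF-kB cofactor Nfkbiz at -2.40. Of 12 class I genes 1 was higher and 4 lower, the transactivator Nlrc5 at -0.88, and of 7 class II genes 1 was higher and 1 lower. Among 16 genes of efferocytosis 3 were higher and 6 lower, with the integrin Itgb3 at 1.67 and the scavenger receptor Stab1 at -1.0. Another Itgb3 probe set gave 0.12 against M0 and was not called. Beside 13.3% higher and 15.6% lower of all genes, the remaining lists gave 3 higher and 5 lower of 17 LXR and fatty acid synthesis genes, 2 and 5 of 18 fatty acid oxidation genes, 4 and 7 of 19 glycolysis genes, 5 and 4 of 23 lysosomal genes, and 1 and 4 of 11 iron genes.

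Macrophage identity was checked with 15 tested markers, of which 1 was higher and 6 lower than in M0, beside 1 and 5 in M2 cells and 13.3% and 15.6% of all genes. The M-CSF receptor Csf1r read 13.80, 13.71 and 13.73 in M0 and 13.82, 13.73 and 13.79 with nutlin-3a, and Adgre1, or F4/80, 12.87, 12.86 and 12.81 and 12.92, 12.85 and 12.79. Neither gene was called (adjusted p = 0.739 and 0.95), and both were high on every array, as were lysozyme Lyz2 and Tyrobp. The members that fell were the Fc receptor Fcgr1 (-1.75), Aif1 (-1.01), Maf (-0.80), Cx3cr1 (-0.69), Cd14 (-0.64) and Spi1 (-0.22), and Cebpa rose (0.68). Other Maf probe sets gave -1.87, -1.69, -1.67, -1.12 and -0.31 against M0, and another Fcgr1 probe set gave -2.30. Of 7 stromal and 3 erythroid genes 0 were called, of 5 T and NK cell genes 1 was higher, of 5 B cell genes 1 was lower, and of 8 neutrophil genes 1 was higher and 2 lower. Among 7 dendritic cell genes 1 was higher, Batf3, and among 4 mast cell and basophil genes 1 was higher, Gata2 (0.25, adjusted p = 0.0439), a call lost on leaving out M0 replicate 1 or 2, M2 replicate 1 or 3, or nutlin-treated replicate 1 or 3 (adjusted p from 0.0534 to 0.171). Mean list levels over the arrays ran from 4.42 to 4.5 with nutlin-3a and from 4.38 to 4.48 in M0 for T and NK cell genes, and from 5.05 to 5.10 and from 4.69 to 4.89 for dendritic cell genes. For B cell genes they ran from 5.40 to 5.46 and from 5.48 to 5.55, for neutrophil genes from 5.35 to 5.41 and from 5.32 to 5.51, and for mast cell genes from 4.01 to 4.18 and from 3.93 to 4.09. Stromal genes gave 5.34 to 5.64 and 5.31 to 5.75, and erythroid genes 4.57 to 4.60 and 4.38 to 4.66. The part of other cells in the results was not tested.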

How the data were processed

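RNA from 15 mouse macrophage cultures was read on single-channel 3′ expression arrays. The authors deposited log2 expression values made by RMA, per the submitters' processing notes, and these were used without further normalization. Of 45101 probe sets, 34945 named 1 gene, 932 several and 9160 none, and 64 were controls. Each of 18193 genes was taken from its probe set with the highest mean over the 15 arrays, and the 13703 that exceeded the 40th percentile of the array in 3 or more samples were tested. limma 3.58.1 in R 4.3.3 fitted 5 group means to all 15 arrays (the 3 M1 arrays entered the probe set choice, the filter and this fit, and no comparison) with Benjamini-Hochberg adjustment. On simulated data of 13703 genes for nutlin-treated against M0 cells, 22% of changes of 1.25-fold, 80% of 1.5-fold and 100% of 2-fold were recovered. The simulated arrays were independent, and only 50 genes were changed at each size. In the data 28.9% of genes were called and same-numbered arrays deviated together, so these shares need not hold for the data. Depth has no meaning for arrays, and the number of arrays limits the precision. Same-numbered arrays deviated together (r from 0.306 to 0.428 for nutlin-treated and M0, from 0.337 to 0.381 for nutlin-treated and M2), so the numbers pair the samples from the data, and the block on them was an alternative.

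The rule for named genes took the 10 largest rises and falls, the genes furthest outside both levels, those most given back or reversed, and up to 4 members of each list. Members and lists were chosen with earlier results of these data known. Genes outside the rule were chosen after their values were seen: Mdm4, Il4ra, Jak1, Jak2, Tyk2, Stat6, Ptpn6, Ppargc1b, Mrc1, Klf4, Egr2, Polk, Gtse1, Sesn1, Sesn2, Xpc, Ppm1d, Rchy1, Pias1, Cop1, Usp7, Bcl2l11, Casp1, Casp8, Dram1, Apaf1, Atf4, Per3, Nr1d2, Dbp, Insig1, Mki67, Csf1r, Adgre1, Lyz2, Tyrobp, Cd14, Spi1 and Cebpa. Alternatives were other filters and probe set rules, fewer arrays, trended or robust variance, array weights, the replicate block and leaving out each array.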

Additional observations from a re-analysis of the deposited data

Results flagged for a closer look

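For 9 named genes the difference from M0 was called in M2 cells and in nutlin-treated M2 cells with opposite sign, and nutlin-treated minus M2 was itself called. On the log2 scale it was 2.53 for Rgs1, 2.20 for Trp53inp1, 1.92 for Kank3, 1.66 for Jdp2, 1.42 for Cd80, -1.02 for Klf2, -0.88 for Efr3b, -0.75 for Polh and -0.63 for Alg13. The calls against M0 for Efr3b and Polh were lost on leaving out single arrays: Efr3b without M0 replicate 2 (adjusted p = 0.0903) or 3 (0.103) or nutlin-treated replicate 3 (0.0754), and Polh without M0 replicate 2 or 3 or any nutlin-treated array. Efr3b was at -0.05 against M0 with the mean of all probe sets (adjusted p = 0.725) and was not called with only the 6 arrays compared (adjusted p = 0.0831). With only probe sets specific by suffix Polh was at -0.13 against M0 (adjusted p = 0.504) and -0.18 against M2 (adjusted p = 0.406), and neither was called. No group held 4 or more arrays, so single arrays could not be checked as outliers.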

How the results depend on the processing

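With only the 9 arrays of the 3 groups, 267 effects were reduced instead of 176. With array weights nutlin-treated against M2 cells gave 2022 higher and 1280 lower genes and nutlin-treated against 10058F4 cells 2044 genes, while 344 effects were reduced, 451 enlarged, 992 lost and 91 reversed, and 853 genes lay above both levels. The cause was not tested. With the replicate block 1996 genes were higher and 2313 lower than in M0, and among the 164 genes named by the rule the block changed the call against M0 for Mgl2 and against M2 for 10 others (Tfrc, Utp20, Ccne2, Gbp2, Vegfa, Klf9, Aif1, Cx3cr1, Cd3d and Csf3r). Jdp2 turned direction against M2 with only probe sets specific by suffix (-0.20, adjusted p = 0.261). Leaving out single arrays gave 1445 to 1760 genes higher and 1719 to 2100 lower than in M0, 1374 to 1704 and 1937 to 2444 for M2 against M0, 756 to 1267 and 462 to 835 for nutlin-treated against M2, and 584 to 961 against 10058F4. Classes then held 1620 to 1961 kept, 99 to 164 reduced, 151 to 300 enlarged, 322 to 582 lost, 737 to 1469 undecided and 25 to 46 reversed effects, with 354 to 512 genes above and 239 to 436 below both levels. Rises still called numbered 830 to 893, falls 1158 to 1378, and effects of at least 2-fold 381 to 416. The 3′ minus 5′ difference between nutlin-treated and M0 arrays was 0.0717 to 0.124 for beta-actin and -0.0149 to 0.0002 for Gapdh. Of these 164 genes 145 kept their call against M0 in every alternative run, 18 lost it at least once and 1, Mgl2, gained it. Against M2 125 kept it, 17 lost it, 21 gained it and 1, Jdp2, reversed. Genes named outside the rule were not run under the alternatives as single genes.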
